A study of Homo sapiens with 6 samples.

Results

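The mitochondrial ribosomal proteins are the nuclear-encoded proteins of the ribosome that works inside mitochondria. Their genes were taken as the rows of the deposited counts table with a symbol of MRPL or MRPS, digits and at most 1 letter of A, B or C. The rule uses names and no measured values, but the list was chosen with earlier results of these data known. This gave 78 genes of the 60564 rows, 29 with a small-subunit name (MRPS) and 49 with a large-subunit name (MRPL). All 78 were among the 18786 genes with enough counts to be tested, with 217 to 6308 counts in a library.

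The mitochondrial ribosome, or mitoribosome, translates the few messenger RNAs of the mitochondrial genome, which encode core subunits of the respiratory chain and the ATP synthase. Its ribosomal RNAs are made inside the organelle, whereas all of its proteins are encoded in the nucleus, made in the cytosol and imported. Many of these proteins have bacterial counterparts and others are found in mitochondria alone. Factors that bind NRF1, ETS (GABP) and YY1 sites are known to act at promoters of nuclear genes for mitochondrial proteins.

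RNA was sequenced in 2 groups of 3 libraries from CAL27, an established line of human tongue carcinoma cells of squamous type. The CNTNAP2-203 OE cells had been infected with a lentivirus carrying CNTNAP2-203, a transcript of the gene CNTNAP2. The control cells had received the control vector, and their sample descriptions name EGFP, while the genotype label calls them WT. Selection with puromycin, at 5 μg/ml over 2 weeks, was the same in both groups, and the series asks how the transcript affects cell proliferation. Nothing in the labels ties the 3 libraries of a group to separate cultures or infections, so the spread behind each p-value may be technical.

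Total counts ranged from 36843190 to 42412703 in CNTNAP2-203 OE and from 38769375 to 41754789 in control libraries. CNTNAP2 was at 3498 ± 248 CPM in CNTNAP2-203 OE (counts per 1e6 after TMM scaling; SD, n = 3) and had 0, 3 and 4 raw counts in the 3 controls. All 8 markers of squamous epithelium were present, with sums of 3898 to 4668 FPKM (fragments per kilobase of gene and 1e6 mapped fragments) in CNTNAP2-203 OE and of 4064 to 4556 FPKM in control. None of the 8 was called by edgeR, beside 1.39% of all tested genes in either direction. Their median log2 fold change was -0.30, with 2 of 8 above 0. At an unadjusted p under 0.05 1 was higher and 3 were lower, beside 9.41% and 7.84% of all tested genes. KRT17, a keratin of stratified epithelia, was at 381 to 481 FPKM in CNTNAP2-203 OE and at 616 to 663 FPKM in control, and the desmosomal cadherin DSG3 at 16.3 to 23.5 FPKM and 27.6 to 37.7 FPKM. The keratin KRT5 went the other way, at 1167 to 1316 FPKM in CNTNAP2-203 OE and at 916 to 1104 FPKM in control. The 6 fibroblast markers summed to 5.74 to 5.97 FPKM in CNTNAP2-203 OE and 5.36 to 6.01 FPKM in control, mostly LUM and COL1A1, with COL3A1 at or near 0. The 5 leukocyte markers summed to 10.9 to 13.3 FPKM in CNTNAP2-203 OE and 11.4 to 16.2 FPKM in control, nearly all CD14, with PTPRC at or near 0. The 4 endothelial markers summed to 0.901 to 1.47 FPKM in CNTNAP2-203 OE and 0.715 to 1.201 FPKM in control, mostly CDH5, with PECAM1 and KDR at or near 0. CNTNAP2-203 OE replicate 3 stood apart: it had the lowest total, the fewest genes with a count (25336, against 26418 to 27002 in the other 5) and a mean distance of 70.6 from the other libraries of its group, against 50.2 to 61.5 for the other 5. In that library TP63, a transcription factor of basal squamous cells, was at 7.34 FPKM, against 20.7 to 28.8 FPKM in the other 5, and PKP1, a desmosomal protein, at 18.4 FPKM, against 26.9 to 39.8 FPKM. Of the same markers, KRT14 and SFN were highest there, at 1693 and 741 FPKM, against 1167 to 1681 and 539 to 615 FPKM in the other 5. The part of these differences in the results was not tested, and values without that library are given beside many of the results it moves.

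The 78 genes lay on 21 chromosomes, with at most 8 on one, so they share no locus. As examples of matches to searched words, stretches of 60 bases from 6 of them are printed. They were read from RefSeq promoter sequences (GRCh38.p14) and lie before the gene's start. They come from the 15 genes with a window that held a match and no annotated exon base, so they do not show how common a word is. Capitals mark a match to an NRF1 word (GCGC, any base, TGCGC) in MRPL17, an E2F word in MRPL18, and the ETS word CCGGAAG or its reverse complement in MRPL20, MRPS10, MRPS18A and MRPS22. The log2 fold changes were 0.63 for MRPL17, 0.36 for MRPL18, 0.49 for MRPL20, 0.16 for MRPS22 and -0.00 for MRPS10 and MRPS18A, so 1 word stands before genes with different values.
MRPL17 (chr11:6683402-6683461, minus strand): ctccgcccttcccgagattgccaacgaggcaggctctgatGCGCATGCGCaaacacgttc
MRPL18 (chr6:159789750-159789809, plus strand): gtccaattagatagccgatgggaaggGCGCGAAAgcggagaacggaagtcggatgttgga
MRPL20 (chr1:1407314-1407373, minus strand): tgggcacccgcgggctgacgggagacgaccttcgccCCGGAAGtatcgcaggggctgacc
MRPS10 (chr6:42217866-42217925, minus strand): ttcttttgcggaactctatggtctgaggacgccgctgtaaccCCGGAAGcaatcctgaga
MRPS18A (chr6:43687792-43687851, minus strand): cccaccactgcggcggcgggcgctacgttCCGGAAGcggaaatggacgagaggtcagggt
MRPS22 (chr3:139343884-139343943, plus strand): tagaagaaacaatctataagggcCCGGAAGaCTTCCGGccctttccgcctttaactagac

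RefSeq promoters, each holding 250 bases before and 50 bases after the gene's start, were at hand for 69 of the 78 genes, and were searched on both strands. The ETS word was found in 29 of the 69 (42%), against 10.3% of all 35116 promoters and 17.7% of the 11285 promoters of tested genes. The YY1 word AAGATGGC was found in 20 (29%), against 2.89% of all promoters and 4.98% of those of tested genes, and 15 of its 21 matches began after the gene's start. The NRF1 word was in 8 (11.6%), against 5.78% and 10.9%, and its form with A as the free base in 1, that of MRPL17. Of words tied to growth control, the E-box CACGTG was in 6 (8.7%), against 7.26% and 10%, and any of the E2F words TTTCCCGC, TTTGGCGC, TTTCGCGC and TTTGCCGC in 6 (8.7%), against 3.31% and 5.06%. CCAAT was in 20 (29%), against 34.6% and 36.3%. An ETS word and a YY1 word can overlap by the letters AAG, and a match is a run of letters, not a measured binding site. The median log2 fold change was 0.30 for the genes with an ETS word and 0.33 for those without, and 0.29 and 0.34 with and without a YY1 word.

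Most of the 78 genes had somewhat higher counts in CNTNAP2-203 OE than in control, but none passed the test. By edgeR's quasi-likelihood test with Benjamini-Hochberg adjustment over all tested genes, 0 of the 78 were called higher and 0 lower at an adjusted p under 0.05, where 0.798% of all tested genes were called higher, 0.596% lower and 1.39% in either direction. The smallest adjusted p of a member was 0.0961, for MRPL33. At an unadjusted p under 0.05, 33 of the 78 were higher and 0 lower, beside 9.41% and 7.84% of all tested genes. Without CNTNAP2-203 OE replicates 1, 2 and 3 in turn, 31, 47 and 22 members were higher by that rule, beside 8.40%, 9.98% and 9.04% of all tested genes. Without control replicates 1, 2 and 3 the counts were 19, 13 and 15, beside 7.66%, 6.44% and 6.11%, and 1 member was lower without control replicate 3. DESeq2 called 6 members higher (MRPL33, MRPS34, MRPL51, MRPL16, MRPL27 and MRPL23, with DESeq2 adjusted p of 0.00852 to 0.0482), where it called 4.40% of its tested genes higher. By limma-voom 0 members were called, where 166 of all tested genes were called in either direction.

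The log2 fold change was positive for 73 of the 78 genes, where 49.6% of all tested genes had a positive value. The median over the 78 was 0.32, or 1.25-fold, with quartiles of 0.19 and 0.41, and the median over all tested genes was -0.00. A log2 fold change of at least 1.2-fold was reached by 47 members, where 21.9% of all tested genes reached it. All 3 CNTNAP2-203 OE libraries lay above all 3 controls for 39 of the 78, where 13.7% of all tested genes did, and all 3 lay below for 0, where 12.8% did. Without CNTNAP2-203 OE replicate 3 the median was 0.16, with 67 values above 0. MRPL33 was then called higher, the only member, with a log2 fold change of 0.50 and an edgeR adjusted p of 0.0472, where 1.59% of all tested genes were called higher. These are bulk libraries, so more cells of a kind and more RNA per cell cannot be told apart.

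**Figure D1:**
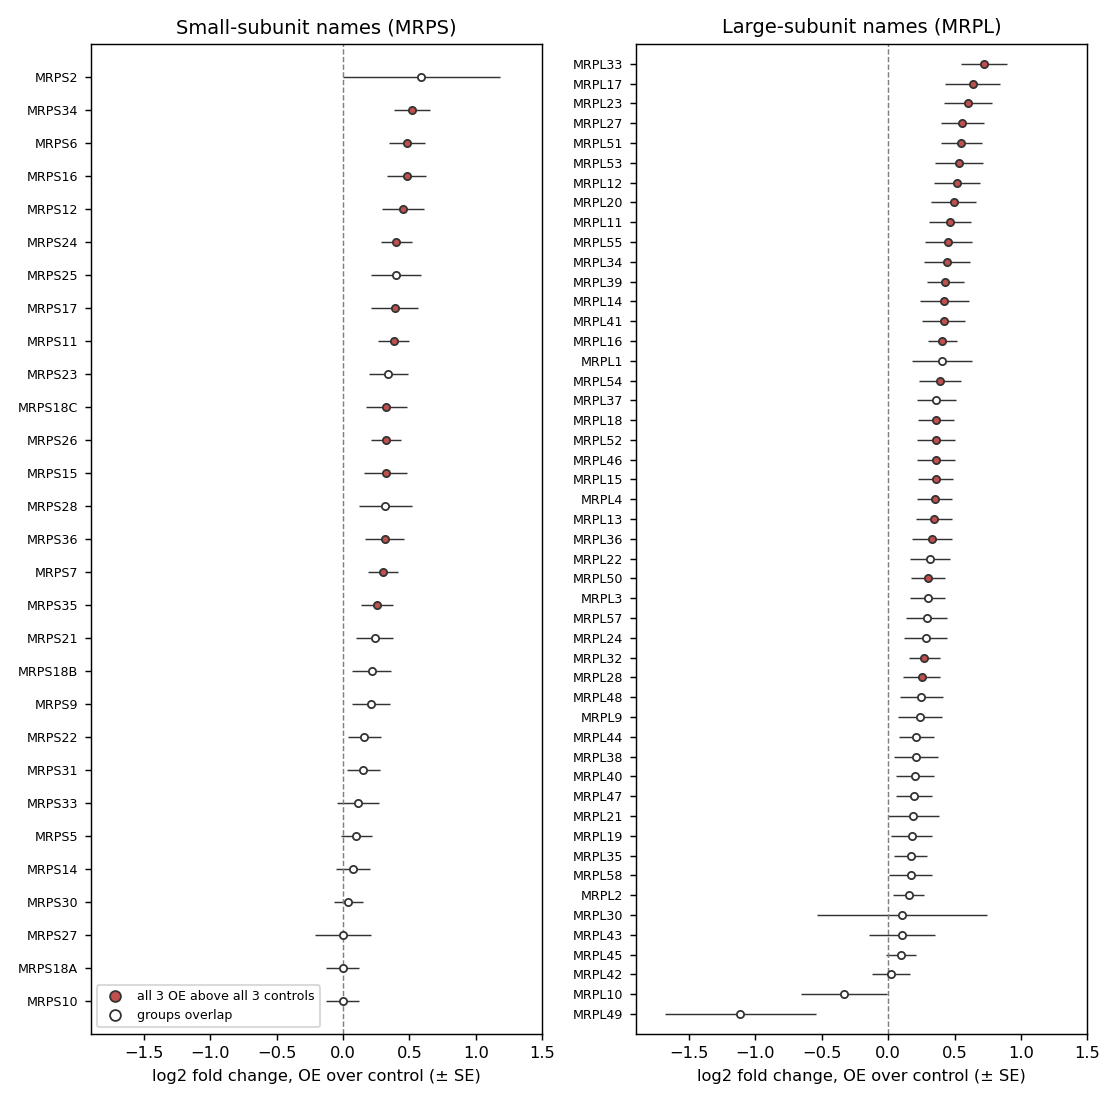
Log2 fold change of each of the 78 genes, CNTNAP2-203 OE over control, with its SE from the edgeR fit, for MRPS names on the left and MRPL names on the right. Filled points are the 39 genes whose 3 CNTNAP2-203 OE libraries all lay above all 3 controls, and MRPL49 has the lowest value with one of the widest errors.

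The summed level of the 78 genes was 1656, 1593 and 2031 FPKM in CNTNAP2-203 OE replicates 1, 2 and 3, against 1507, 1427 and 1454 FPKM in the controls. All 3 CNTNAP2-203 OE sums lay above the 3 control sums, and replicate 3 was the highest. As a share of all counts in a library, the 78 genes took 0.439%, 0.416% and 0.524% in CNTNAP2-203 OE, against 0.4004%, 0.381% and 0.391% in control. Set against the mean of the controls gene by gene, the median of the 78 log2 differences was 0.21, 0.12 and 0.58 in CNTNAP2-203 OE replicates 1, 2 and 3, and 0.03, -0.05 and -0.01 in the controls, while the same median over all tested genes was at most 0.01 in every library.

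**Figure D2:**
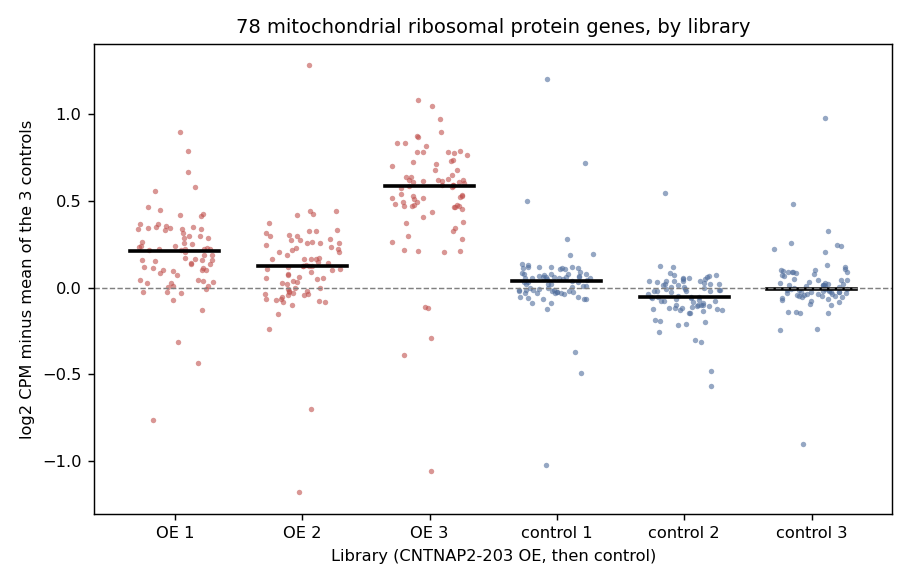
Each point is 1 of the 78 genes in 1 library, as log2 CPM minus the mean log2 CPM of the 3 controls, and each black line is the median of a library. The medians are 0.21, 0.12 and 0.58 in CNTNAP2-203 OE and lie between -0.05 and 0.03 in control.

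CNTNAP2-203 OE replicate 3 was the highest of the 6 libraries for 71 of the 78 genes, where it was the highest for 28.7% of all tested genes. The exceptions were MRPS16 and MRPL30, highest in CNTNAP2-203 OE replicate 1, MRPS2, highest in replicate 2, and MRPL10, MRPL49, MRPS27 and MRPL42, highest in a control. With CNTNAP2-203 OE replicates 1 and 2 alone, both lay above all controls for 39 genes, where 19.1% of all tested genes did. Across the 78 genes, the mean difference of replicates 1 and 2 from control and the difference of replicate 3 had a Spearman correlation of 0.59, a description over genes that are measured against the same controls.

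MRPL33, a large-subunit protein with a bacterial counterpart, had the largest log2 fold change. Its level was 35.4, 31.8 and 50.2 CPM in CNTNAP2-203 OE, against 24.6, 23.6 and 23.0 CPM in control. All 3 CNTNAP2-203 OE libraries lay above the controls, which were close together. The log2 fold change was 0.72 (SE 0.173, edgeR quasi-likelihood adjusted p = 0.0961), and its adjusted p ranged from 0.00852 to 0.329 over the alternative settings. The gene spans chr2:27771717-27988087 (GENCODE 29, GRCh38, plus strand), and its exons overlap those of BABAM2, which had 1249, 1224 and 1412 counts in CNTNAP2-203 OE and 1240, 1288 and 1313 in control.

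The next largest values with separated groups are described gene by gene. MRPL17, the counterpart of a protein near the tunnel's end, was at 57.6, 61.3 and 93.3 CPM in CNTNAP2-203 OE, against 43.5, 39.3 and 53.8 CPM in control. MRPL23, whose bacterial counterpart is a docking point for factors that meet the nascent chain, was at 36.0, 31.7 and 51.2 CPM in CNTNAP2-203 OE, against 25.0, 25.7 and 27.8 CPM in control. For both genes the lowest CNTNAP2-203 OE library was above the highest control, by a small step, and replicate 3 was well above the rest. Their log2 fold changes were 0.63 (SE 0.207, edgeR adjusted p = 0.181) and 0.60 (SE 0.179, edgeR adjusted p = 0.152), and 0.38 and 0.37 without that replicate. MRPL27, whose bacterial counterpart reaches toward the peptidyl transferase centre, was at 28.3, 26.5 and 38.6 CPM in CNTNAP2-203 OE, against 20.7, 19.6 and 23.1 CPM in control, at a log2 fold change of 0.56 (SE 0.163, edgeR adjusted p = 0.146), or 0.37 without that replicate. The groups did not overlap for MRPL27 either.

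The stalk of the large subunit recruits the translation factors, and its 3 genes had different values. MRPL12, the stalk protein itself, was at 114, 109.6 and 171 CPM in CNTNAP2-203 OE, against 96.0, 90.4 and 89.0 CPM in control, a log2 fold change of 0.52 (SE 0.171, edgeR adjusted p = 0.182). MRPL11, at the base of the stalk, was at 106, 98.8 and 145 CPM in CNTNAP2-203 OE, against 92.7, 78.1 and 82.6 CPM in control, a log2 fold change of 0.47 (SE 0.157, edgeR adjusted p = 0.189). The groups did not overlap for either gene, and without CNTNAP2-203 OE replicate 3 the values were 0.28 for MRPL12 and 0.27 for MRPL11. MRPL10, which holds the stalk proteins on the ribosome, was at 20.7, 25.3 and 19.7 CPM in CNTNAP2-203 OE, against 42.3, 17.3 and 23.2 CPM in control. Control replicate 1 was well above the other 5 libraries, so the log2 fold change of -0.33 (SE 0.322, edgeR adjusted p = 0.635) turned to 0.11 without that control.

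MRPL51 of the large subunit and MRPS34 of the small subunit belong to the proteins found in mitochondria alone. MRPL51 was at 105, 106 and 151 CPM in CNTNAP2-203 OE, against 84.4, 84.2 and 78.4 CPM in control, at a log2 fold change of 0.55 (SE 0.152, edgeR adjusted p = 0.131). MRPS34 was at 73.9, 78.0 and 99.7 CPM in CNTNAP2-203 OE, against 61.9, 53.3 and 60.1 CPM in control, at a log2 fold change of 0.52 (SE 0.136, edgeR adjusted p = 0.114). Every CNTNAP2-203 OE library lay above every control for both, and without CNTNAP2-203 OE replicate 3 the values were 0.35 for MRPL51 and 0.37 for MRPS34. The 28 members with no bacterial counterpart had a median log2 fold change of 0.27, with 26 above 0 and 11 with separated groups, and the 47 with a counterpart a median of 0.33, with 44 above 0 and 27 separated. Of all tested genes, 49.6% were above 0 and 13.7% had all 3 CNTNAP2-203 OE libraries above all 3 controls. Without CNTNAP2-203 OE replicate 3 these medians were 0.12 and 0.18. MRPS28, MRPS36 and MRPL58 were put in neither list, and MRPL58, a peptidyl-tRNA hydrolase built into the large subunit, had a log2 fold change of 0.17, or -0.02 without that replicate. MRPS36, now known as a subunit of the α-ketoglutarate dehydrogenase complex, had one of 0.31, or 0.16 without it.

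Split by name, small-subunit and large-subunit genes had medians close to that of the whole list. The median log2 fold change was 0.31 over the 29 MRPS genes, with 26 above 0, 9 at an unadjusted p under 0.05 and 13 with separated groups. Over the 49 MRPL genes it was 0.33, with 47 above 0, 24 at an unadjusted p under 0.05 and 26 separated. Of all tested genes, 49.6% were above 0 and 9.41% were higher at that p. All 3 CNTNAP2-203 OE libraries lay above all 3 controls for 13.7% of them. Without CNTNAP2-203 OE replicate 3 the medians were 0.13 and 0.18. The difference between the subunits was not tested.

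The MRPS18 paralogs show that a name does not fix a place on the ribosome, since the MRPS18A protein sits in the large subunit and those of MRPS18B and MRPS18C in the small one. MRPS18A was at 54.6, 55.6 and 69.3 CPM in CNTNAP2-203 OE, against 64.9, 55.1 and 59.5 CPM in control, with overlapping groups and a log2 fold change of -0.00 (SE 0.126, edgeR adjusted p = 0.997). MRPS18B was at 106, 93.5 and 137 CPM in CNTNAP2-203 OE, against 101, 99.0 and 90.0 CPM in control. Its groups overlapped too, at a log2 fold change of 0.22 (SE 0.148, edgeR adjusted p = 0.486). MRPS18C was at 20.0, 21.6 and 28.4 CPM in CNTNAP2-203 OE, against 17.8, 18.8 and 19.2 CPM in control, with separated groups; its log2 fold change was 0.33 (SE 0.154, edgeR adjusted p = 0.328). Without CNTNAP2-203 OE replicate 3 the log2 fold changes were -0.12 for MRPS18A, 0.04 for MRPS18B and 0.16 for MRPS18C. As levels per length, means over the 6 libraries were 38.1, 48.4 and 3.49 FPKM for MRPS18A, MRPS18B and MRPS18C, so the transcript of MRPS18C was the least abundant of the paralogs in every library.

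Only 5 of the 78 genes had a log2 fold change below 0, and for 3 of them the value was at 0. MRPS10, a small-subunit protein with a bacterial counterpart, was at 127, 108 and 147 CPM in CNTNAP2-203 OE, against 129, 130.4 and 123 CPM in control. The CNTNAP2-203 OE libraries lay on both sides of the controls. MRPS27, a small-subunit protein of the pentatricopeptide repeat family, was at 63.5, 59.9 and 52.2 CPM in CNTNAP2-203 OE, against 80.2, 47.4 and 48.1 CPM in control, and its sign changed with several settings. MRPL49 and MRPL10 were the other 2, and control replicate 1 was the highest library in MRPL49, MRPL10 and MRPS27, which was at 0.29 without it. The labels of that control say that its file of reverse reads was missing, and the sources used here do not state which reads its deposited counts rest on.

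MRPL49, MRPL30 and MRPS2 were the 3 genes whose log2 CPM had a within-group SD over 0.5, where 19.2% of all tested genes had such a spread. The median SD was 0.206 over the 78 genes and 0.234 over all tested genes. MRPL49, a large-subunit protein, had 1487, 1516 and 1000 counts in CNTNAP2-203 OE, against 5441, 1906 and 1349 in control. Its log2 fold change of -1.11 (SE 0.569, edgeR adjusted p = 0.391) rests on control replicate 1 and was -0.26 without it. Its exons overlap those of FAU and SYVN1 on the opposite strand, which had 12714 and 4644 counts in control replicate 1 and 11348 to 13605 and 4277 to 4770 over the 3 controls; their part was not tested.

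MRPL30, a large-subunit protein with a bacterial counterpart, had 6089, 1650 and 4969 counts in CNTNAP2-203 OE, against 1766, 5210 and 5353 in control. Its values formed a low pair, CNTNAP2-203 OE replicate 2 and control replicate 1, and a high set of the other 4, with 1 low library in each group. MRPS2, the counterpart of a bacterial small-subunit protein, had 3355, 4272 and 1219 counts in CNTNAP2-203 OE, against 1198, 1201 and 3541 in control. It too had a high and a low level, but in other libraries: CNTNAP2-203 OE replicate 3 was low and control replicate 3 high. The log2 fold changes were 0.10 (SE 0.639, edgeR adjusted p = 0.953) for MRPL30 and 0.59 (SE 0.591, edgeR adjusted p = 0.658) for MRPS2. Over the alternative settings they ran from -0.25 to 0.50 for MRPL30 and from 0.25 to 1.25 for MRPS2, which was at 0.92 without CNTNAP2-203 OE replicate 3. C9orf116, whose exons overlap those of MRPS2 on the opposite strand, had 115, 94 and 80 counts in CNTNAP2-203 OE and 107, 73 and 77 in control; its part was not tested.

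**Figure D3:**
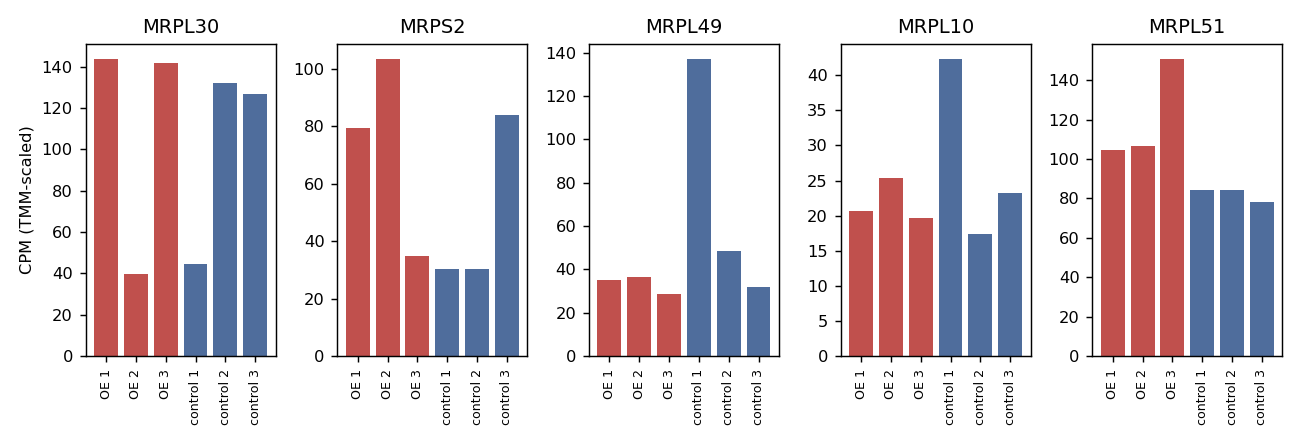
TMM-scaled CPM in each library for MRPL30, MRPS2, MRPL49 and MRPL10, with MRPL51 for comparison, CNTNAP2-203 OE in red and control in blue. The libraries that stand high or low differ from gene to gene, and in MRPL51 all 3 CNTNAP2-203 OE bars are above the control bars.

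Levels were compared between genes on the per-length FPKM scale. The mean over the 6 libraries ranged from 1.28 FPKM for MRPL42 to 90.0 FPKM for MRPL12, a ratio of 70.5, with a median over the 78 genes of 15.3 FPKM. MRPL41, a large-subunit protein found in mitochondria alone, followed MRPL12 at 63.0 FPKM, then MRPL51 at 59.4, MRPL18, whose bacterial counterpart binds 5S ribosomal RNA, at 56.2 and MRPS34 at 52.7 FPKM. The order within the upper 5 is partly within their spread: MRPL41 was at 71.0 ± 14.2 FPKM in CNTNAP2-203 OE and 55.0 ± 1.87 FPKM in control, and MRPL51 at 69.6 ± 12.6 FPKM and 49.1 ± 2.18 FPKM (SD, n = 3 each). MRPL12 was above the other 77 in every library, at 92.5, 89.8 and 131 FPKM in CNTNAP2-203 OE and 78.8, 74.8 and 73.0 FPKM in control. In the stalk, MRPL12 was thus above MRPL11 at 32.2 FPKM and MRPL10 at 7.30 FPKM, given as means over the 6 libraries.

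At the low end, MRPL42 stood at 1.28 FPKM, MRPL46 at 3.32, MRPS18C at 3.49, MRPS11 at 4.25 and MRPL43 at 4.29 FPKM. For MRPL42 the length that relates its FPKM to its counts was 20.2 kb, against 0.712 kb for MRPL41, so the length the authors used sets part of this order. MRPL46, of the large subunit, had a log2 fold change of 0.36 (SE 0.146, edgeR adjusted p = 0.262), and MRPS11, a small-subunit protein with a bacterial counterpart, one of 0.38 (SE 0.117, edgeR adjusted p = 0.157), both with separated groups. MRPL41 and MRPL18, at the high end, had log2 fold changes of 0.42 (SE 0.162, edgeR adjusted p = 0.242) and 0.36 (SE 0.136, edgeR adjusted p = 0.227). Without CNTNAP2-203 OE replicate 3 the values were 0.20 for MRPL46, 0.30 for MRPS11, 0.20 for MRPL41 and 0.20 for MRPL18. MRPL42 and MRPL43, both of the large subunit, had log2 fold changes of 0.02 (SE 0.144, edgeR adjusted p = 0.961) and 0.10 (SE 0.246, edgeR adjusted p = 0.861) with overlapping groups. MRPL43 was at 13.5, 17.7 and 27.7 CPM in CNTNAP2-203 OE, against 19.7, 17.5 and 17.6 CPM in control, and without CNTNAP2-203 OE replicate 3 its log2 fold change was -0.23.

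**Figure D4:**
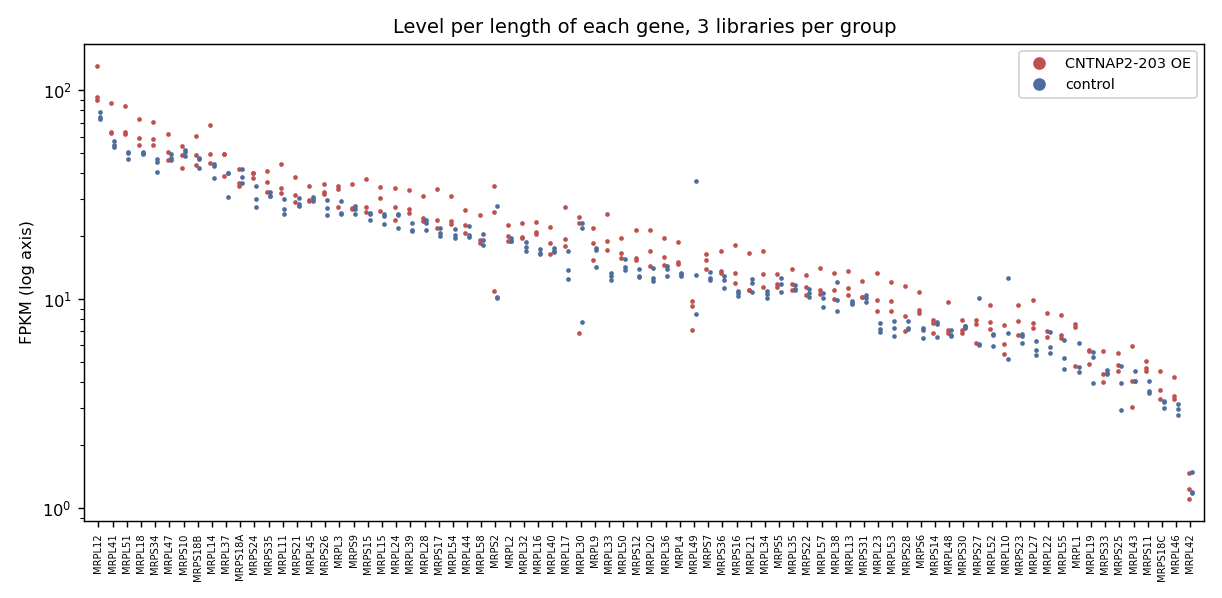
FPKM of each of the 78 genes on a log axis, ordered by the mean over the 6 libraries, with the 3 CNTNAP2-203 OE libraries in red and the 3 controls in blue. The means run from 90.0 FPKM for MRPL12 to 1.28 FPKM for MRPL42, and MRPS2, MRPL30, MRPL49 and MRPL10 show the wide scatter described for them.

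Across the 78 genes, the log2 fold change had a Spearman correlation of 0.13 with mean FPKM, -0.29 with the implied gene length and 0.27 with the GC content of the longest GENCODE 29 transcript. Over all tested genes the correlations with length and GC were -0.14 and -0.01. The genes share libraries and depth, so these are descriptions. The median implied length was 3.11 kb for the 78 genes and 5.14 kb for all tested genes, and the median GC content 47.7% and 48.7%. The median log2 fold change of the 78 genes was 0.29 with the length trend of each library removed and 0.36 with the GC trend removed, where the median of all tested genes was 0.04 in both fits.

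The mitoribosome has further proteins whose symbols are not of the MRPL or MRPS form, and 5 of them were measured. None was called by edgeR, beside 1.39% of all tested genes in either direction. At an unadjusted p under 0.05, 2 were higher, beside 9.41%. The 5 had a median log2 fold change of 0.43, or 0.12 without CNTNAP2-203 OE replicate 3. CHCHD1, a small-subunit protein, was at 30.0, 27.6 and 41.5 CPM in CNTNAP2-203 OE, against 25.5, 20.7 and 22.9 CPM in control (log2 fold change 0.52, edgeR adjusted p = 0.184). AURKAIP1, also of the small subunit, was at 61.6, 61.6 and 97.3 CPM in CNTNAP2-203 OE, against 56.2, 46.5 and 48.0 CPM in control (log2 fold change 0.55, edgeR adjusted p = 0.204). The groups did not overlap in either gene, and without that library the values were 0.32 for CHCHD1 and 0.29 for AURKAIP1.

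Factors that build and serve the mitoribosome come next. Of 26 assembly and rRNA modification factors edgeR called 0, beside 1.39% of all tested genes in either direction. At an unadjusted p under 0.05, 3 were higher and 1 lower, beside 9.41% and 7.84%. The 26 had a median log2 fold change of 0.15, or 0.09 without CNTNAP2-203 OE replicate 3. Among them MPV17L2, needed for ribosome assembly, was at 26.3, 27.6 and 29.4 CPM in CNTNAP2-203 OE, against 20.9, 18.6 and 18.7 CPM in control (log2 fold change 0.52, edgeR adjusted p = 0.0777). MRM2, a methyltransferase of the large ribosomal RNA, was at 81.5, 74.7 and 88.8 CPM in CNTNAP2-203 OE, against 37.0, 59.5 and 62.5 CPM in control (log2 fold change 0.62, edgeR adjusted p = 0.166). In both genes all CNTNAP2-203 OE libraries lay above all controls.

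Of 15 translation factors edgeR called 0, beside 1.39% of all tested genes in either direction. At an unadjusted p under 0.05, 1 was higher, beside 9.41%. The 15 had a median log2 fold change of 0.10, or 0.06 without CNTNAP2-203 OE replicate 3. MTFMT, which formylates the initiator methionine, was at 15.6, 14.02 and 17.0 CPM in CNTNAP2-203 OE, against 8.87, 14.7 and 8.97 CPM in control, and TSFM, an elongation factor, had overlapping groups as well (edgeR adjusted p of 0.272 and 0.378). Of 14 genes of mitochondrial transcription and RNA processing edgeR called 0, beside the same 1.39%. At an unadjusted p under 0.05, 5 were higher, beside the same 9.41%. The 14 had a median of 0.22, or 0.16 without that library. ELAC2, which cuts the 3′ ends of mitochondrial tRNAs, was at 109, 114 and 113 CPM in CNTNAP2-203 OE, against 88.1, 90.0 and 91.0 CPM in control (log2 fold change 0.33, edgeR adjusted p = 0.115). HSD17B10, a subunit of the enzyme that cuts their 5′ ends, had a log2 fold change of 0.47 (edgeR adjusted p = 0.124), or 0.39 without that library.

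The RNAs that the mitoribosome is built on and translates were measured too. Of the 13 mitochondrially encoded protein genes edgeR called 0, beside 1.39% of all tested genes in either direction. At an unadjusted p under 0.05 there were 0, beside 9.41% higher and 7.84% lower over all tested genes. Above 0 were 7 of the 13, beside 49.6% of all tested genes. The 13 had a median log2 fold change of 0.05, or -0.04 without CNTNAP2-203 OE replicate 3. Their extremes by p were MT-ND6, at a log2 fold change of 0.23, and MT-ND4L, at -0.27, with edgeR adjusted p of 0.464 and 0.517, and at 0.06 and -0.07 without that library. The ribosomal RNA genes, whose transcripts the rRNA depletion can remove, were at log2 fold changes of 0.25 for MT-RNR1 and -0.15 for MT-RNR2, with edgeR adjusted p of 0.363 and 0.518. Without that library the values were 0.19 and -0.22.

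Nuclear genes of oxidative phosphorylation and of the cytoplasmic ribosome were measured for comparison. Of 75 subunits of oxidative phosphorylation edgeR called 0, beside 1.39% of all tested genes in either direction. At an unadjusted p under 0.05, 33 were higher, beside 9.41%. Above 0 were 72 of the 75, beside 49.6% of all tested genes. The 75 had a median log2 fold change of 0.35, or 0.16 without CNTNAP2-203 OE replicate 3. COX7B, of cytochrome c oxidase, was at 91.9, 82.8 and 115.99 CPM in CNTNAP2-203 OE, against 54.0, 59.0 and 63.9 CPM in control (log2 fold change 0.72, edgeR adjusted p = 0.0581, or 0.56 and 0.0361 without that library). ATP5G1, of the ATP synthase ring, had a log2 fold change of 0.65 (edgeR adjusted p = 0.0969), or 0.48 without that library. Of 79 cytoplasmic ribosomal proteins edgeR called 0, beside the same 1.39%. At an unadjusted p under 0.05, 9 were higher, near the 9.41% of all tested genes. Above 0 were 77 of the 79, beside 49.6% of all tested genes. The 79 had a median of 0.27, or 0.05 without that library. RPS26 and RPS10 had the smallest p among them, with log2 fold changes of 0.58 and 0.41 (edgeR adjusted p of 0.133 and 0.134), or 0.37 and 0.31 without it. No difference between these lists and the mitochondrial ribosomal proteins was tested.

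**Figure D5:**
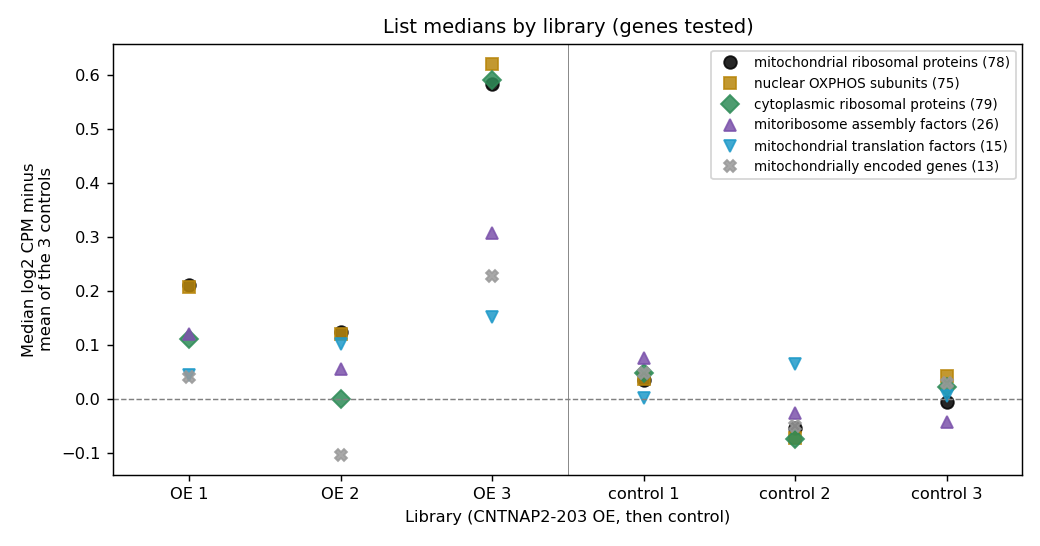
Median over each list of the log2 CPM minus the mean of the 3 controls, by library, with the number of genes tested in each list. In CNTNAP2-203 OE replicate 3 the medians of the mitochondrial ribosomal proteins, the oxidative phosphorylation subunits and the cytoplasmic ribosomal proteins are 0.58, 0.62 and 0.59, and in replicate 2 they are 0.12, 0.12 and 0.00.

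Of 9 regulators of mitochondrial gene expression edgeR called 0, beside 1.39% of all tested genes in either direction. At an unadjusted p under 0.05 there were 0, beside 9.41% higher and 7.84% lower over all tested genes. The 9 had a median log2 fold change of 0.02, or -0.05 without CNTNAP2-203 OE replicate 3. ESRRA, an orphan nuclear receptor that activates genes of oxidative metabolism, was at 83.4, 119 and 137 CPM in CNTNAP2-203 OE, against 70.4, 70.5 and 99.8 CPM in control, with overlapping groups (log2 fold change 0.50, edgeR adjusted p = 0.293; 0.33 without that library). MYC, a growth regulator, was at 22.0, 17.1 and 20.1 CPM in CNTNAP2-203 OE, against 23.1, 149 and 18.3 CPM in control. Control replicate 2 alone was high, and the log2 fold change was -1.69 (SE 0.889, edgeR adjusted p = 0.404). E2F1, the cell cycle regulator in the series' title, rose to 47.9, 42.8 and 50.2 CPM in CNTNAP2-203 OE, against 23.5, 24.2 and 27.0 CPM in control (log2 fold change 0.92, SE 0.112, edgeR adjusted p = 0.0174). Unlike the median of the 78 genes, E2F1 was about as high in CNTNAP2-203 OE replicate 1 as in replicate 3.

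Part of the counts of these genes may belong to neighbours. In GENCODE 29, exons of 41 of the 78 genes overlap those of another annotated gene, 29 on the opposite strand and 16 on the same strand, and libraries made with this kit carry no strand information. Among them, MRPL51 overlaps NCAPD2, MRPL11 overlaps PELI3 and MRPL23 overlaps MRPL23-AS1 on the opposite strand, and MRPL12 overlaps AC139530.2 on the same strand. The part of these neighbours was not tested. The 67 rows of mitochondrial ribosomal protein pseudogenes summed to 489, 463 and 386 counts in CNTNAP2-203 OE and to 486, 420 and 546 in control, against 170669 to 192924 counts of the 78 genes in CNTNAP2-203 OE and 147759 to 163244 in control.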

How the data were processed

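Libraries were made with the TruSeq kit v2 after Ribo-Zero depletion, per the labels' protocols. Trim Galore 0.4.4 and hg38 are named in the submitters' processing notes. The sources used here name no aligner, counter, annotation or strand setting. Deposited by the authors were raw counts per gene and log2 values, which are log2(FPKM + 1) by their relation to the counts: the implied gene length varied between libraries by a median of 0.252% with an offset of 1 and 4.02% with none.

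Counts passing filterByExpr (minimum count 10) were scaled by TMM and compared with the robust quasi-likelihood test of edgeR 4.0.16 (R 4.3.3), adjusted by Benjamini-Hochberg over 18786 genes, threshold 0.05. The biological coefficient of variation (common) was 0.227. Each SE is the absolute log2 fold change over the square root of F. Simulated counts were used to check the script. DESeq2 1.42.0, limma-voom (limma 3.58.1), other scalings, filters, a replicate block, length and GC trends and leaving out each library were alternatives. Positions and GC are from GENCODE 29; promoters are RefSeq's.

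Members and lists were chosen with earlier results of these data known. The rule for named members took the 6 largest positive and all 5 negative log2 fold changes, the 5 highest and 5 lowest levels, the MRPS18 paralogs and the stalk, and from each other list the 2 genes with the smallest p; CNTNAP2, E2F1 and MYC were always named. MRPL30, MRPL16, MRPS16, MRPS36, MRPL58, MRPS22 and MRPL20 were named after their values or sequences were seen. The main fit did not pair libraries by replicate number. Deviations of same-numbered libraries from their group means correlated at -0.08, 0.05 and -0.03. With 3 libraries a group, these values cannot show whether same-numbered libraries were handled together.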

Additional observations from a re-analysis of the deposited data

How the results depend on the processing

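Over all alternatives the median log2 fold change of the 78 genes stayed between 0.16 and 0.40, with 67 to 76 values above 0, and no member was called lower. The count called higher was 6 by DESeq2 and 0 to 1 when each library was left out in turn, the 1 being MRPL33 without CNTNAP2-203 OE replicate 3; under every other setting it was 0. DESeq2 also called 1 of 26 assembly factors and 2 of 14 genes of mitochondrial transcription and RNA processing. It called 8 of 75 subunits of oxidative phosphorylation and 2 of 79 cytoplasmic ribosomal proteins, where it called 4.40% of its 14763 tested genes higher. Of oxidative phosphorylation 1 was called with no filter, 1 with the length trend removed, and 0 to 1 with a library left out. With the replicate block the median was 0.30 with 0 members called, and 17 genes were called of all, against 262 without it; the block and length trend together gave 24. All genes called, in either direction, numbered 1125 by DESeq2, 166 by limma-voom and 167 without the robust fit. They numbered 354 with no filter, 415 with the length trend removed and 14 to 545 with a library left out. Signs turned under at least 1 alternative in 12 of the 78 genes, among them MRPL30 and MRPL58, which were at -0.14 and -0.02 without CNTNAP2-203 OE replicate 3. Of those chosen by rule, MRPL42 was at -0.019 with library totals; MRPS27 at 0.043 by limma-voom, 0.039 with the block, 0.066 with the length trend removed, 0.11 with both and 0.025 with the GC trend removed; MRPS10 at 0.040 and MRPS18A at 0.045 with the GC trend removed, an alternative chosen after seeing the data. With a library left out, log2 fold changes ran from -0.58 to 0.11 for MRPL10, -0.12 to 0.10 for MRPS10, -0.12 to 0.063 for MRPS18A, -0.13 to 0.29 for MRPS27, -0.077 to 0.14 for MRPL42 and -0.23 to 0.32 for MRPL43. The cause of these differences was not tested. With 3 libraries a group and this spread, a difference of about 1.25-fold in a single gene may not be detectable, and 0 called does not show that values were equal.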
